A study of Rattus norvegicus with 48 samples.

Results

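The soleus transcriptome of low responders (LRT) and high responders (HRT) to endurance training was compared directly between the lines after 3 d of hindlimb immobilization (HI). The comparison uses the 6 LRT HI and 6 HRT HI soleus libraries, 12 of 48 libraries in the series, chosen by their labels alone. Each library is the soleus of 1 female rat, 14 months old, from generation 19 of 2 lines bred in opposite directions for their gain in treadmill running. The rats had been through treadmill training earlier, and the foot of the cast limb was held in plantar-flexion. All rats had received puromycin shortly before the muscles were taken, so this agent is shared by every group. Control rats (CTRL) of each line, 6 per line, had no cast and are different animals, and the plantaris libraries come from the same rats as the soleus libraries. The rats were not inbred, so a line is a group of related but unlike animals.

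The soleus is a slow, postural muscle of the calf that is loaded almost continuously in a standing rat, and it loses mass quickly when it is unloaded. In disuse, myofibrillar protein is broken down by the ubiquitin-proteasome system and by autophagy, in which cargo is delivered to lysosomes, while slow fibres may take on fast-fibre gene programmes. Muscle also holds capillaries, connective tissue, blood and resident immune cells, and RNA of all of these is present in a whole-muscle library. In such libraries a smaller number of cells of a type and less RNA per cell cannot be told apart. The question of this comparison is how the 2 lines differ in the cast muscle itself, which is not the same as how each line changed from its own controls.

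The 12 libraries held between 26.9 and 34.96 M estimated counts. RNA integrity numbers were 7.8 to 8.2 in both groups, and the 20 most abundant genes took 35.3 ± 1.25% of the counts in LRT HI and 35.7 ± 1.33% in HRT HI (SD, n = 6). Any 2 libraries of a group differed far more than counting error, with a chi-square per gene of 25.6 to 170.3 where 1 would be expected for copies of 1 library. Markers of skeletal muscle summed to 2350 to 5430 CPM (counts per M counts) in LRT HI and 2536 to 4969 CPM in HRT HI, and 0 of the 11 were called between the lines, where 12.2% of all genes were. Replicate 5 of HRT HI stood apart in genes of red blood cells, and line differences that rest on it are given with and without it. Responses to the cast are given with all libraries only. Of 31998 identifiers, 1142 (3.57%) could be paired with a symbol, all through tables of genes that the study had selected for a response to the cast in these rats, so the named genes are not a fair sample of the transcriptome. The labels give the rats of a group as separate samples.

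After the cast, many genes differed between the lines, mostly by small amounts. Of 16960 genes tested, 2076 were called at an adjusted p under 0.05 (12.2%), with 1120 higher in LRT (6.6%) and 956 higher in HRT (5.64%). With library totals in place of TMM the larger share was on the HRT side, since 628 of 1581 called genes (39.7%) were higher in LRT, against 53.9% with TMM. An unadjusted p under 0.05 was found for 4459 genes (26.3%). The median absolute log2 fold change of the called genes was 0.47, against 0.199 over all genes, and 230 of them (1.36% of those tested) passed an absolute log2 fold change of 1, 84 higher in LRT and 146 higher in HRT. Among the called genes, 382 (18.4%) had no overlap between the 6 LRT and the 6 HRT rats, while this held for 2.71% of all genes, 1.33% with LRT above and 1.37% with HRT above. Throughout, fold changes are LRT over HRT on the log2 scale, so that a positive value is higher in LRT, errors of fold changes are SE, and adjusted p-values are Benjamini-Hochberg values over all tested genes from the quasi-likelihood test of edgeR. Without replicate 4 of HRT the count fell to 1194 genes, of which 1172 were among the 2076, and with the 12 libraries fitted alone it was 328, of which 311 were.

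The first principal component of the 12 libraries carried 24.3% of the variance and lay along the line. Its scores averaged 23.1 ± 16.8 in LRT and −23.1 ± 20.4 in HRT (SD, n = 6), a difference beyond the spread between rats (2-sided exact permutation test p = 0.00649, adjusted over 3 components 0.0195). The groups still overlapped, since replicate 6 of HRT at 11.1 lay above replicates 1 and 6 of LRT at 5.2 and 7.6. The second component, with 19.1% of the variance, spread the rats within each line (p = 0.316 in the same exact test).

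**Figure D1:**
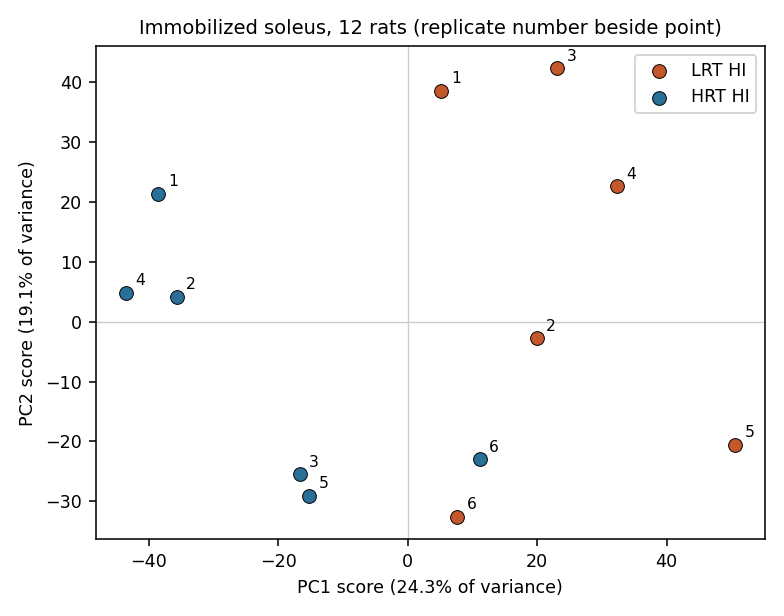
Scores of the 12 immobilized soleus libraries on the first (x axis, 24.3% of variance) and second (y axis, 19.1%) principal components, without units, with the replicate number beside each point. HRT replicate 6 (11.1 on the first component) is the 1 HRT library on the LRT side.

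More genes were called between the lines after the cast than in the uncast muscle. In CTRL soleus 246 genes (1.45%) were called, 93 higher in LRT (0.548%) and 153 higher in HRT (0.902%). That count was 139 without replicate 1 of LRT CTRL, 150 without replicate 1 of HRT CTRL and 156 without replicate 5 of LRT CTRL. With library totals it was 558, of which 9.7% were higher in LRT, beside 1581 after the cast, and with the 12 libraries of each comparison alone it was 78 beside 328. The 2 lists shared 104 genes, 5.0% of the immobilized list and 42.3% of the uncast one, and 103 of the 104 had the same direction. Most genes called after the cast had the same direction without it: 1772 of the 2076 (85.4%) kept their sign in CTRL soleus, where 66.2% of all genes agreed in sign, but their median log2 difference in that direction was 0.15 there. Across the 16960 genes the log2 fold changes of the 2 comparisons, which share no rat, had Pearson r = 0.38, given as a description since genes are not independent. The test of the change itself, the interaction of line and cast, called 5 genes (0.0295%), while 1640 (9.67%) had an unadjusted p under 0.05. Of the 2076 genes, 801 (38.6%) had an unadjusted interaction p under 0.05, but they were selected on HI values that also enter the interaction, so nothing is read from that share.

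**Figure D2:**
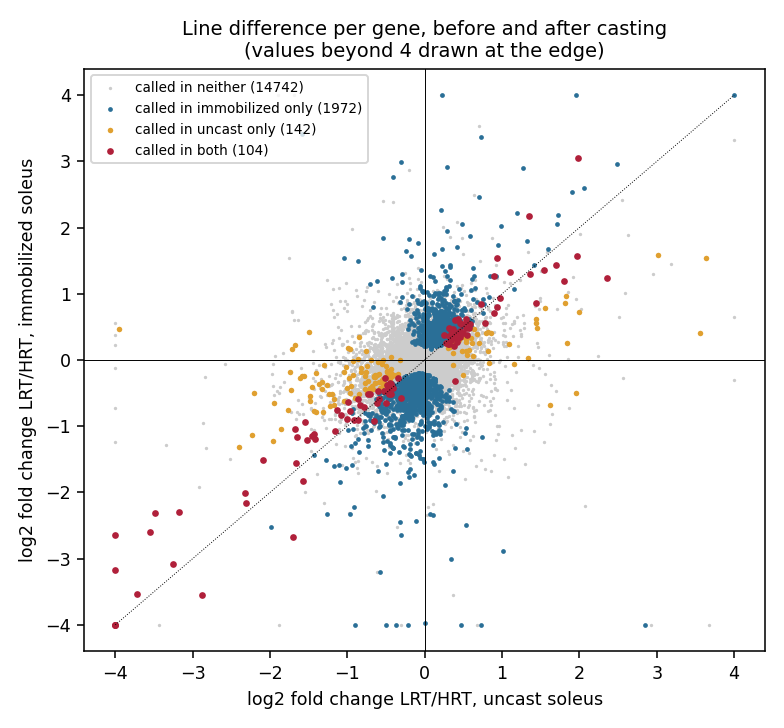
Each point is 1 of 16960 genes, with the log2 fold change LRT over HRT in uncast soleus on the x axis and in immobilized soleus on the y axis, and the dotted line marks equal values. Colours mark the 104 genes called in both states, 1972 called in immobilized muscle only, 142 in uncast muscle only and the rest.

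In the plantaris of the same cast rats, a fast muscle, 410 genes (2.42%) were called, 278 higher in LRT (1.64%) and 132 higher in HRT (0.778%). That count depends on the fit: it was 186 with plantaris fitted alone and 13 with its 12 libraries alone, of which 30.8% were higher in LRT against 67.8%, and 700 with DESeq2. Of these, 149 were also called in immobilized soleus, which is 36.3% of the plantaris list and 7.2% of the soleus list, and 147 had the same direction. In all 3 comparisons together 26 genes were called, each in a constant direction, and 0 of them had a paired symbol. ENSRNOG00000042253 was the gene with the smallest p. Its level in immobilized soleus ran from 10 to 11.5 CPM in LRT (median 10.4) and from 3.09 to 4.73 CPM in HRT (median 4.41). The 2 lines did not overlap, and the log2 fold change was 1.36 ± 0.11 after the cast, 1.54 in uncast soleus and 1.5 in immobilized plantaris. ENSRNOG00000005193 was likewise higher in every LRT rat after the cast (13.4 to 34.9 against 6.56 to 8.90 CPM), whereas ENSRNOG00000037595 was lower in every LRT rat (19.5 to 30.4 against 40.6 to 56.4 CPM). Both were also called in uncast soleus, at 0.94 and −0.66.

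Among the 1142 genes with a symbol, 80 (7.01%) were called, 42 higher in LRT and 38 higher in HRT. Every list and marker set below holds only such genes, chosen for a response to the cast in these same libraries. A list's share of calls beside that of all genes, its signs, its median and its summed level are therefore descriptions. They support nothing about the list. The 12 with the smallest p in each direction kept their sign under each of the 10 other settings in which they were tested and with each of the 12 libraries left out in turn. They also kept their call in every such leave-one-out fit, except Slc4a1. With the 12 libraries fitted alone, 7 of these 24 were still called, namely AABR07065124.2, C3, Fmo1, Gaa, LOC100362684, Nsun4 and RT1-Ba. With soleus fitted alone, 22 were called, all but Nexn and AABR07010332.1.

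Of the 12 genes ranked higher in LRT, 9 are described first, and Pik3ap1, Gaa and Pvalb are described with their gene lists. Nsun4 (chromosome 5), which methylates ribosomal RNA in mitochondria, was at 5.88 to 7.95 CPM in LRT HI (median 7.26) and at 2.03 to 4.79 CPM in HRT HI (median 2.88). All 6 LRT rats were above all 6 HRT rats, with a log2 fold change of 1.10 ± 0.25 (adjusted p = 0.00272). In uncast muscle the lines overlapped, at 6.73 to 9.95 CPM in LRT and 6.04 to 7.43 CPM in HRT. The HI libraries also enter the response to the cast, in which 13.9% of all genes were called in LRT and 16.2% in HRT. Nsun4 fell with the cast in HRT, by −1.10 (adjusted p = 0.00268), and was not called in LRT, at −0.28 (adjusted p = 0.471). Here and below, a call in 1 line and not in the other does not test whether the lines responded differently. Of the genes with a symbol, the interaction test called only LOC100362684.

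Creg1, a glycoprotein of the endosomes and lysosomes, ranged from 40.3 to 131.0 CPM in LRT HI (median 74.5) and from 28.1 to 51.4 CPM in HRT HI (median 33.8). In 4 of 6 LRT rats it was above the highest HRT rat, and the log2 fold change was 1.05 ± 0.23 (adjusted p = 0.00215). It was also called in immobilized plantaris, at 1.16 (adjusted p = 0.0039), and not in uncast soleus, at 0.60 (adjusted p = 0.178). Txndc16, a thioredoxin-domain protein of the endoplasmic reticulum, was at 15.1 to 32.8 CPM in LRT HI and 10.9 to 15.4 CPM in HRT HI, a log2 fold change of 0.78 ± 0.18 (adjusted p = 0.00284). It rose with the cast in both lines, by 1.15 in LRT and 0.87 in HRT. Eid2, an inhibitor of EP300-dependent differentiation, was low in both lines, at 0.453 to 1.11 CPM in LRT HI and 0.263 to 0.576 CPM in HRT HI (log2 fold change 0.95 ± 0.21, adjusted p = 0.00212), which came from only 8 to 35 counts per library. Tmem179, a transmembrane protein, was at 1.624 to 4.58 CPM in LRT HI and 0.263 to 1.623 CPM in HRT HI, where the lines only just failed to overlap, and it had a log2 fold change of 1.44 ± 0.31 (adjusted p = 0.00193).

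The other 4 of these 9 genes carry no gene name of their own, and their reads may be shared with close copies. LOC100362684, annotated as like ribosomal protein S20, was 27.2 to 52.1 CPM in LRT HI and 7.85 to 25.9 CPM in HRT HI, without overlap. Its log2 fold change was 1.64 ± 0.24 after the cast and −0.24 in uncast soleus. LOC100912571, annotated as like the translation initiation factor eIF4G1, had a log2 fold change of 1.77 ± 0.41 (adjusted p = 0.00338) with wide and overlapping ranges, 6.41 to 33.5 CPM in LRT HI and 1.12 to 18.6 CPM in HRT HI, and its value was 2.50 without replicate 6 of HRT. AABR07029907.3 and AABR07060913.2, both of the class misc_RNA, had log2 fold changes of 1.88 ± 0.33 and 1.41 ± 0.31. For LOC100912571, AABR07029907.3 and AABR07060913.2 the cast lowered the level in HRT, by log2 values of −1.73, −1.09 and −0.95, while the LRT values were 0.13, 0.20 and 0.25 and were not called.

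**Figure D3:**
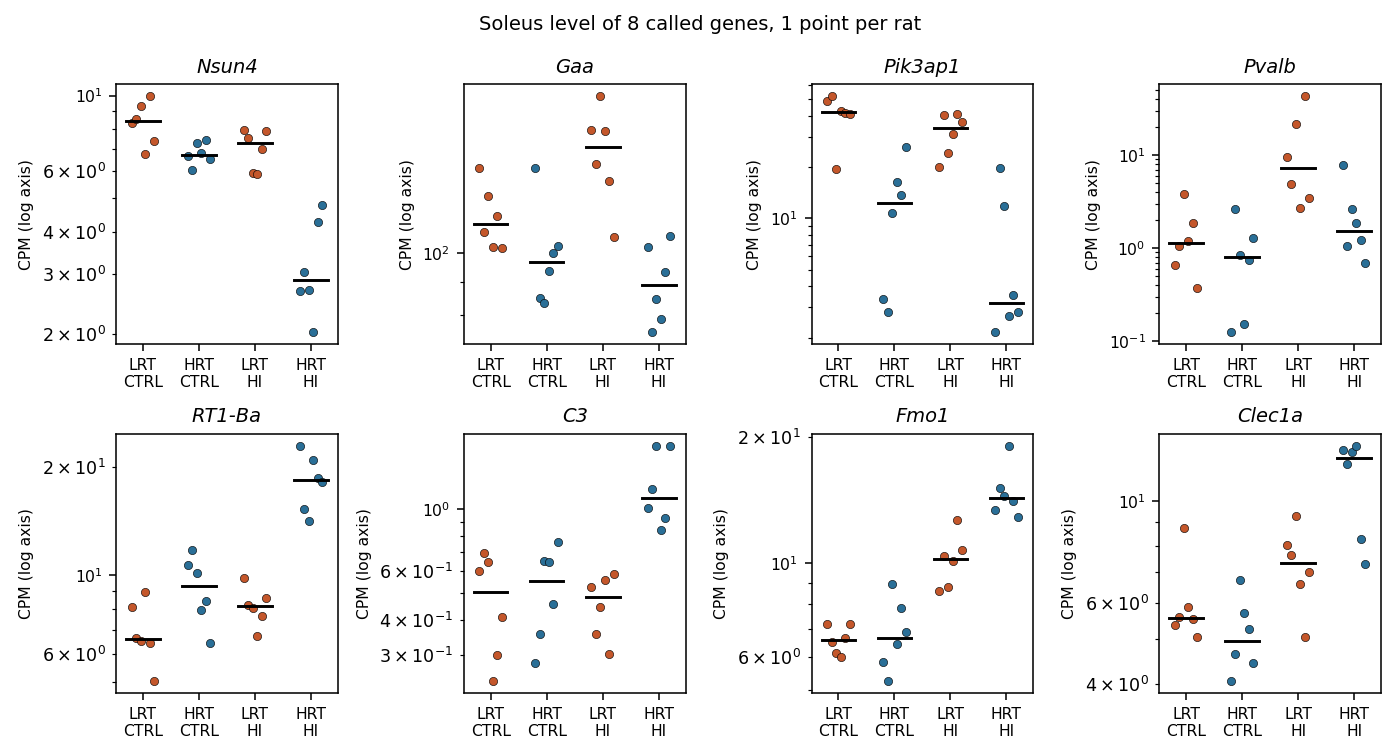
CPM on log axes (y) of 8 called genes in the 4 soleus groups (x), with 1 point per rat and a bar at the median of 6. After the cast, Nsun4 and Pik3ap1 were higher in every LRT rat, and RT1-Ba, C3 and Fmo1 were higher in every HRT rat.

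Among the genes ranked higher in HRT were RT1-Ba and C3. RT1-Ba (chromosome 20), the alpha chain of a class II molecule of the rat major histocompatibility complex that presents peptides to T cells, was at 14.1 to 23.0 CPM in HRT HI (median 18.4) and 6.76 to 9.80 CPM in LRT HI (median 8.16). All 6 HRT rats were above all 6 LRT rats, a 2.23-fold difference (log2 fold change −1.16 ± 0.23, adjusted p = 0.00079). The uncast groups overlapped, at 6.44 to 11.7 CPM in HRT and 5.03 to 8.93 CPM in LRT. RT1-Ba rose with the cast in HRT, by 1.03 (adjusted p = 0.00265), and was not called in LRT, at 0.26 (adjusted p = 0.495). The interaction had an unadjusted p of 0.0215 and was not called. C3, the central protein of the complement cascade, was at 0.844 to 1.70 CPM in HRT HI and 0.302 to 0.585 CPM in LRT HI, without overlap (log2 fold change −1.40 ± 0.29, adjusted p = 0.00119). It rests on 8 to 67 counts per library. Other genes of these kinds were not called, among them RT1-DMa, of antigen loading (−0.84, adjusted p = 0.264), and RT1-CE16, of class I (−1.32, adjusted p = 0.066), while the complement gene C4a had the other sign (0.80, adjusted p = 0.122); these 3 were picked after their values were seen.

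The promoter of RT1-Ba is shown because class II promoters are known for a conserved Y box, which holds a CCAAT box in reverse. The window spans 250 bases before to 50 after the start of the gene in RefSeq (GRCr8, chr20:4576807-4577106, plus strand). Capitals mark the CCAAT box, here as ATTGG on the printed strand.
RT1-Ba: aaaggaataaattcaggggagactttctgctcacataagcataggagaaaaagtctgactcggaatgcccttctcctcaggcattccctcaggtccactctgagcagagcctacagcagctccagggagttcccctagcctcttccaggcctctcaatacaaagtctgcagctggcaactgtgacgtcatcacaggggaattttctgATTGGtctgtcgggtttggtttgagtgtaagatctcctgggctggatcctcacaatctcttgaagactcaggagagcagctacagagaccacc
CCAAT was searched on both strands, and it was found in 37.5% of the 33469 promoters of this length in the table, so this match does not set RT1-Ba apart.

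The list of leukocyte and antigen presentation genes as a whole held 6 called members of 30 (20%, against 12.2% of all genes and 7.01% of genes with a symbol), 5 higher in HRT and 1 higher in LRT. Its median log2 fold change was −0.33, beside −0.005 for all genes, and 22 of 30 members were lower in LRT. The calls were 2 with the 12 libraries alone and 3 when a minimum of 10 counts was required in each library. Without replicate 5 of HRT, 3 were higher in HRT and 2 higher in LRT. Without replicate 3 of HRT or 6 of LRT, 7 were higher in HRT and 1 higher in LRT. The median was −0.17 with the minimum of 10 counts, −0.20 without replicate 5 of LRT, −0.21 without replicate 3 of LRT and −0.44 without replicate 2 of LRT. Clec9a, a receptor of dendritic cells for dead cells, was at 3.32 to 6.06 CPM in HRT HI and 2.42 to 3.87 CPM in LRT HI (log2 fold change −0.58 ± 0.17, adjusted p = 0.0162). Lilrb3, an inhibitory receptor of myeloid cells, was at 1.02 to 8.33 CPM in HRT HI and 0.869 to 2.59 CPM in LRT HI (−1.40 ± 0.43, adjusted p = 0.0252). Ly49si2, of the Ly49 receptors of natural killer cells, a multigene family whose reads may be split, was at 0.591 to 1.95 CPM in HRT HI and 0.223 to 0.869 CPM in LRT HI (−1.23 ± 0.34, adjusted p = 0.0131). These 3 overlapped between the lines. Left-out libraries ended some calls: Clec9a without replicate 4 of HRT (adjusted p = 0.0539) or replicate 5 of LRT (0.0571), Ly49si2 without replicate 5 of HRT (0.0662), and Lilrb3 without replicates 1, 5 or 6 of HRT or 3, 4 or 5 of LRT (0.0506 to 0.0873), with limma-voom or with the 12 libraries alone.

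The exception was Pik3ap1, an adaptor that links B-cell and Toll-like receptors to phosphoinositide 3-kinase. It was at 20.1 to 40.8 CPM in LRT HI (median 33.8) and 2.15 to 19.8 CPM in HRT HI (median 3.196). In HRT 2 of the 6 rats, replicates 2 and 3 at 19.8 and 11.8 CPM, were well above the other 4, and even these lay under the lowest LRT rat (log2 fold change 2.20 ± 0.56, adjusted p = 0.00732). In uncast muscle the lines overlapped, at 19.4 to 51.9 CPM in LRT and 2.83 to 26.2 CPM in HRT, and the log2 fold change of 1.72 was not called (adjusted p = 0.0906). Without replicate 2 of HRT HI the difference after the cast was 2.87.

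Markers of leukocytes, summed over 10 genes, came to 35.4 to 62.1 CPM in HRT HI (median 49.1) and 19.3 to 34.6 CPM in LRT HI (median 25.1). RT1-Ba, described above, took a large part of this difference. It averaged 18.35 CPM in HRT HI and 8.197 CPM in LRT HI, within mean sums of 47.9 and 25.67 CPM. Of the 10 markers 1, Siglec5, had a positive log2 fold change (0.24), and Dok3 (−0.13) and Siglec10 (−0.34) were near 0. The 2 lines did not overlap after the cast with TMM scaling, but with library totals they did, at 36.85 to 72.2 CPM in HRT and 21.6 to 39.5 CPM in LRT. These markers were chosen from genes with a response to the cast in these same libraries, so nothing is read from the separation. The uncast ranges of 17.4 to 30.8 CPM in HRT and 17.1 to 27.3 CPM in LRT did overlap. Of the 10 markers, 3 were called higher in HRT (Clec9a, Lilrb3 and RT1-Ba) and 0 higher in LRT (30%, against 12.2% of all genes and 7.01% of genes with a symbol). None of the 10 was at 0 counts in all 12 libraries. The 3 calls became 1 without replicate 5 of LRT or with the 12 libraries alone, and 2 without replicates 1, 4, 5 or 6 of HRT or 3 or 4 of LRT. They became 4, all higher in HRT, without replicate 2 of HRT or replicates 1 or 6 of LRT. In cast plantaris of the same rats the sums were 24.8 to 39.7 CPM in HRT and 17.0 to 32.7 CPM in LRT, and 0 of 10 were called, where 2.42% of all genes were. The part of leukocyte number in the differences of the immune genes was not tested.

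**Figure D4:**
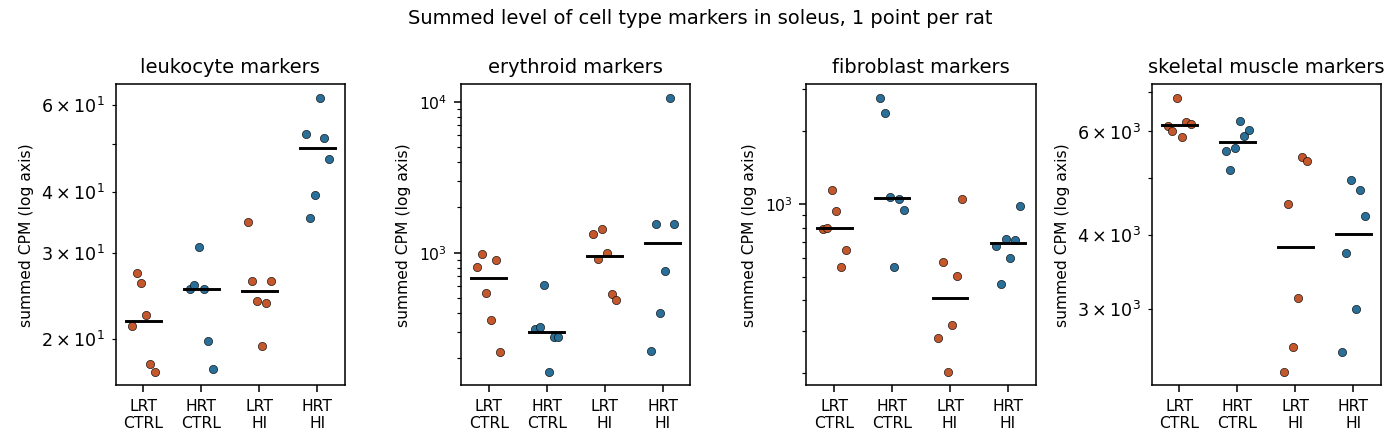
Summed CPM on log axes (y) of marker genes of leukocytes, erythroid cells, fibroblasts and skeletal muscle in the 4 soleus groups (x), with 1 point per rat and a bar at the median of 6. With this TMM scaling, leukocyte markers do not overlap between the lines after the cast (with library totals they do), and 1 HRT HI rat, replicate 5, reaches 10600 CPM of erythroid markers. All markers come from genes selected for a response to the cast in these rats.

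Interferon response genes did not move together. Of 10 members, 2 were called higher in HRT (20%, against 12.2% of all genes and 7.01% of genes with a symbol) and 8 were not called, with a median log2 fold change of −0.01. By edgeR 0 were called with soleus alone, with genes of any count or with the 12 libraries alone, and 0 without replicate 5 of HRT or 2, 4 or 5 of LRT, while DESeq2 called 3. The median was −0.31 without replicate 2 of LRT and lay between −0.12 and 0.04 in the other alternatives. Rsad2, an antiviral enzyme, was at 3.38 to 51.2 CPM in HRT HI (median 6.96) and 3.27 to 8.46 CPM in LRT HI (median 4.95). Most of that difference lay in replicate 5 of HRT, at 51.2 CPM, and without it the log2 fold change went from −1.27 ± 0.43 (adjusted p = 0.0422) to −0.27 (adjusted p = 0.662). The call was also lost without replicate 2 of HRT or 2, 4, 5 or 6 of LRT, with an adjusted p of at least 0.0591, and in 5 of the 10 other settings, limma-voom and soleus alone among them. In plantaris, too, the HRT HI library numbered 5 was highest, at 14.4 CPM, with the 5 others at 3.58 to 5.67 CPM. Bst2, tetherin, which holds budding viruses at the cell surface, was at 2.07 to 2.99 CPM in HRT HI (median 2.54) and 0.891 to 2.37 CPM in LRT HI (median 1.43). It had 5 of 6 LRT rats below the lowest HRT rat (log2 fold change −0.73 ± 0.24, adjusted p = 0.0397), and it lost its call without replicates 4, 5 or 6 of HRT or 1 to 5 of LRT, with an adjusted p of 0.054 to 0.115, and with genes of any count, soleus alone or the 12 libraries alone.

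The promoters of these 2 genes are shown because both hold the core of the interferon-stimulated response element, searched on both strands as 2 GAAA repeats with any 2 bases between them, and found in 3.92% of the 33469 promoters. They are the RefSeq windows of GRCr8 at chr6:48788071-48788370 (Rsad2, minus strand) and chr16:18254918-18255217 (Bst2, minus strand). Capitals mark the matches, 1 in Rsad2 from base 104 in reverse and 2 overlapping ones in Bst2 from bases 120 and 126.
Rsad2: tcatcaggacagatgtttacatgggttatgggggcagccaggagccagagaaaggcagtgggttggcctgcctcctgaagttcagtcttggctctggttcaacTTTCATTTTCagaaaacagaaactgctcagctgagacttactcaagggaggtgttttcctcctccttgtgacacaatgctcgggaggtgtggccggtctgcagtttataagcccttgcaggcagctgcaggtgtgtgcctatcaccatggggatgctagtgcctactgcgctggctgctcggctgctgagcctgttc
Bst2: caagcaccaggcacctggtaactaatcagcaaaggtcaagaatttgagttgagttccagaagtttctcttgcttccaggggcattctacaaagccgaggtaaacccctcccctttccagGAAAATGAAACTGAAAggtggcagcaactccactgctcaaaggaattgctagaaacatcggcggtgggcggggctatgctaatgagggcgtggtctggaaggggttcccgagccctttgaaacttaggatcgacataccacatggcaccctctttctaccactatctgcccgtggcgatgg
A match is a description of the letters and not a measured binding site. Bst2 fell with the cast in both lines, by −1.18 in LRT and −0.98 in HRT, while Rsad2 rose in HRT, by 1.92, and was not called in LRT, at 0.84 (adjusted p = 0.199). The HRT value of Rsad2 includes replicate 5 at 51.2 CPM, with the other HRT HI rats at 3.38 to 11.8 CPM and the uncast HRT rats at 2.26 to 4.18 CPM. It is not given without that library.

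The erythroid difference in soleus rests on 1 library. The list held 2 called members of 9 (22.2%, against 12.2% of all genes and 7.01% of genes with a symbol), both higher in HRT, with a median log2 fold change of −1.43, which became 0.01 without replicate 5 of HRT. Slc4a1, the anion exchanger of the red cell membrane, was at 5.65 to 55.1 CPM in HRT HI (median 8.84) and 3.59 to 7.76 CPM in LRT HI (median 4.91). Replicate 5 of HRT held the 55.1 CPM and the next rat 11.6 CPM. With all rats the log2 fold change was −1.57 ± 0.36 (adjusted p = 0.00328), and without replicate 5 it was −0.66 (adjusted p = 0.0839). It was also not called with the 12 libraries alone (adjusted p = 0.0923). Lgals5, a galectin of maturing red cells, had a log2 fold change of −1.74 ± 0.60 (adjusted p = 0.049), or −0.80 (adjusted p = 0.403) without that library. It was also not called without replicates 2, 4 or 6 of HRT or 2 to 6 of LRT (adjusted p of at least 0.0525), and in 7 of the 9 other settings that tested it, DESeq2 and limma-voom among them.

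The globins and the haem enzyme Alas2 were not called. Hba-a1 was at 90.8 to 4117 CPM in HRT HI (median 447.1) and 171.2 to 543.1 CPM in LRT HI (median 338.8), with a log2 fold change of −1.49 ± 0.61 (adjusted p = 0.104) that became 0.01 without replicate 5. For Hba-a2 and Alas2 the change was from −1.68 and −1.43 to −0.06 and 0.00, and for Hbb from −1.003 to 0.50. Hba-a2 and Alas2 passed the test only without replicate 1 or replicate 3 of HRT, with an adjusted p of 0.0357 to 0.0393. Erythroid markers summed over 6 genes came to 224.3 to 10600 CPM in HRT HI and 489.5 to 1449 CPM in LRT HI, and the mean of the 5 other HRT rats was 898.8 ± 629.7 CPM against 949.6 ± 394.9 CPM in LRT (SD). None of the 6 markers was at 0 counts in all 12 libraries. In plantaris the HRT HI library numbered 5 also stood apart, with Hba-a1 at 1092 CPM (80.9 to 168.5 CPM in the 5 others) and Alas2 at 47.2 CPM (5.19 to 9.17 CPM), and the erythroid sums were 241.9 to 3078 CPM in HRT and 184.8 to 503.3 CPM in LRT. The list's median log2 fold change was −1.21 there and 0.85 in uncast soleus, with 0 of 9 called by edgeR in either, where 2.42% and 1.45% of all genes were called. The part of blood in the other HRT values of replicate 5 was not tested.

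Genes of vessels and connective tissue are described next, together with Fmo1, which was named for its rank and is on none of those lists. Clec1a, a lectin of endothelial and dendritic cells, was at 7.30 to 13.2 CPM in HRT HI (median 12.4) and 5.06 to 9.29 CPM in LRT HI (median 7.34), with a log2 fold change of −0.61 ± 0.16 (adjusted p = 0.00923). It was the 1 called of 8 endothelial markers (12.5%, beside 12.2% of all genes), whose summed levels overlapped at 34.99 to 47.6 CPM in HRT and 33.2 to 44.5 CPM in LRT. Fmo1, a flavin-containing monooxygenase, was at 12.9 to 19.1 CPM in HRT HI and 8.60 to 12.7 CPM in LRT HI, without overlap (−0.54 ± 0.12, adjusted p = 0.00338). Fmo1 rose with the cast in both lines, by 1.10 in HRT and 0.62 in LRT.

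Of 30 extracellular matrix genes 1 was called (3.33%, against 12.2% of all genes and 7.01% of those with a symbol), 26 were lower in LRT and the median log2 fold change was −0.37. In uncast soleus the median was −0.56, with 3 called higher in HRT, where 1.45% of all genes were called and 0.902% were called higher in HRT. Without replicate 6 of LRT HI 5 were called and the median was −0.66. The count was 2 without replicates 1, 3 or 5 of HRT, and 0 without replicate 4 of HRT or 3 or 4 of LRT. Adamts8, a secreted metalloprotease, was the called member, at 0.777 to 10.7 CPM in HRT HI and 0.686 to 2.31 CPM in LRT HI (−1.39 ± 0.43, adjusted p = 0.0257), and it lost the call without replicates 2 or 4 of HRT or 2, 3 or 4 of LRT (adjusted p of 0.0624 to 0.181), and also with limma-voom, with soleus alone and with the 12 libraries alone. Col3a1, a fibrillar collagen, was at 236.2 to 566.8 CPM in HRT HI and 86.7 to 546.6 CPM in LRT HI and was not called (−0.60 ± 0.39, adjusted p = 0.339). Fibroblast markers summed over 8 genes to 465.9 to 983.1 CPM in HRT and 203.1 to 1047 CPM in LRT, with 0 called by edgeR or DESeq2 and 2 without replicate 6 of LRT. Fbn1, the microfibril protein fibrillin-1, was called only without replicate 6 of LRT (adjusted p = 0.0487, and 0.469 with all rats).

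For smooth muscle the summed level of 3 markers was 15.0 to 17.3 CPM in HRT HI and 10.7 to 16.1 CPM in LRT HI, with 0 of 3 called (12.2% of all genes were), although 5 of 6 LRT rats lay below every HRT rat. With soleus fitted alone, the actin nucleator Lmod1 among them was called higher in HRT (−0.43, adjusted p = 0.0255, against 0.322 over all libraries). Marker sums of adipocytes (65.9 to 120.6 against 48.9 to 125.3 CPM), nerve (7.59 to 10.9 against 5.12 to 12.2 CPM) and tendon (1.14 to 6.03 against 0.453 to 3.54 CPM), HRT before LRT, overlapped, with 0 called in each. Cidea, a lipid droplet protein among the adipocyte markers, was at 12.5 to 17.4 CPM in LRT HI and 8.28 to 13.0 CPM in HRT HI (0.61 ± 0.33, adjusted p = 0.228), but was called with soleus fitted alone (adjusted p = 0.0424) and with the 12 libraries alone (adjusted p = 0.0374).

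Also ranked higher in HRT were Nexn and a locus like leiomodin-2. Nexn encodes a protein that binds actin at the Z-disc, and it was at 279 to 605.6 CPM in HRT HI (median 349.2) and 145.2 to 411.2 CPM in LRT HI (median 188.9). With the cast it fell in LRT, by −1.02 (adjusted p = 0.000449), and was not called in HRT, at −0.29 (adjusted p = 0.302), and the line difference was −0.73 ± 0.19 (adjusted p = 0.00918). The call of Nexn was lost with soleus fitted alone (adjusted p = 0.0545) and with the 12 libraries alone (adjusted p = 0.114). LOC100909784, annotated as like leiomodin-2, an actin nucleator, was at 41.0 to 481.3 CPM in HRT HI (median 273.2) and 29.2 to 164.8 CPM in LRT HI (median 33.6). This was a log2 fold change of −2.33 ± 0.51 (adjusted p = 0.00217), though its reads may be shared with the gene it resembles.

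The other 5 HRT-higher genes of the 12 have no gene name of their own. AABR07065124.2, a lincRNA on chromosome 6, did not overlap between the lines, at 1.62 to 8.84 CPM in HRT HI and 1.27 to 1.59 CPM in LRT HI (−1.44 ± 0.26, adjusted p = 0.000323). The lincRNAs AABR07001555.1 and AABR07010332.1 had log2 fold changes of −0.88 ± 0.20 and −0.95 ± 0.25, and the protein-coding AABR07060588.2 and AABR07062183.1 had −1.12 ± 0.28 and −0.79 ± 0.21. All 4 of these overlapped between the lines.

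Genes of protein breakdown were mostly higher in LRT in value, with few calls. In the autophagy-lysosome list 2 of 11 members were called (18.2%, against 12.2% of all genes and 7.01% of genes with a symbol), both higher in LRT, 9 of 11 were positive and the median log2 fold change was 0.38, against 0.04 in uncast soleus and 0.71 in immobilized plantaris. Gaa, the lysosomal glucosidase that degrades glycogen, was at 106 to 175.1 CPM in LRT HI (median 146) and 75.3 to 106.2 CPM in HRT HI (median 89.1). Of the 6 LRT rats 5 were above the highest HRT rat, and the log2 fold change was 0.67 ± 0.17 (adjusted p = 0.00732). In uncast soleus it was 0.19 (adjusted p = 0.635) and in immobilized plantaris 0.71 (adjusted p = 0.016).

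Sqstm1, the autophagy receptor p62, was at 415.4 to 1170 CPM in LRT HI (median 741.7) and 368.5 to 626.5 CPM in HRT HI (median 424.3). Its log2 fold change was 0.79 ± 0.25 (adjusted p = 0.0307), and it rose with the cast in LRT, by 0.85 (adjusted p = 0.0184), while the HRT value of 0.11 was not called (adjusted p = 0.809). The call was lost without replicates 1, 3 or 4 of LRT or 2, 4 or 5 of HRT (adjusted p of 0.0571 to 0.118), and also with library totals (0.067) and with the 12 libraries alone (0.085). Not called were the protease cathepsin L (Ctsl, 0.43 ± 0.29) and the autophagosome proteins Map1lc3b (0.26 ± 0.18) and Gabarapl1 (0.50 ± 0.25), whose adjusted p-values were 0.355, 0.369 and 0.192.

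The Gaa promoter is shown because lysosomal genes are known for a shared E-box, whose core TCACGTG was searched on both strands and found in 3.2% of the 33469 promoters. The window is the RefSeq one at chr10:105028105-105028404 of GRCr8 (plus strand), and capitals mark the single match, from base 184 in reverse.
Gaa: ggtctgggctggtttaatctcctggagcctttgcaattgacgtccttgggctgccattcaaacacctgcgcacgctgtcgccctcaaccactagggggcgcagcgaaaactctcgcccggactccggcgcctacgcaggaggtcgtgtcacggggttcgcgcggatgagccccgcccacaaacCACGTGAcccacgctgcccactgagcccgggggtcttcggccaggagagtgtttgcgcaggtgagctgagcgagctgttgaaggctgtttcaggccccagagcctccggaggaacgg
The promoter window of Sqstm1 held 0 matches to these letters.

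In the ubiquitin-proteasome list 0 of 20 members were called (12.2% of all genes were), and 4 had an unadjusted p under 0.05 (20%, against 26.3% of all genes). All 20 log2 fold changes were above 0, from 0.04 to 1.06 with a median of 0.37, against a median of 0.05 in uncast soleus and 0.58 in immobilized plantaris. The members were chosen from genes with a response to the cast in these libraries, so nothing is read from the shared sign. The median was 0.18 without replicate 3 of LRT, 0.24 with limma-voom and 0.26 without replicate 1 of LRT. Calls rose from 0 to 3 without replicate 6 of LRT, to 2 with soleus fitted alone, and to 1 without replicate 1 of HRT, with the replicate block or with DESeq2, all higher in LRT. The muscle ubiquitin ligase Trim63 (MuRF1) was at 98.5 to 313.5 CPM in LRT HI (median 208.6) and 131 to 249.6 CPM in HRT HI (median 146.4), a log2 fold change of 0.34 ± 0.35 (adjusted p = 0.587), or 0.17 without replicate 3 of LRT. Fbxo32 (atrogin-1) was at 210.6 to 516.2 CPM and 207.3 to 444.8 CPM in the same order, 0.12 ± 0.32 (adjusted p = 0.857), or −0.02 without replicate 3 of LRT. The ranges of both ligases overlapped almost fully. The ligase Ubr4, among the most abundant members, was at 365.6 to 671.8 CPM in LRT HI and 378.9 to 583.6 CPM in HRT HI (0.21 ± 0.19). With each library left out in turn it ran from 0.12, without replicate 3 of LRT, to 0.31.

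Of genes known from denervated muscle 0 of 19 were called by edgeR or DESeq2 and 0 had an unadjusted p under 0.05, where all genes had 12.2% and 26.3%. Their median was 0.22, and 14 of 19 were above 0, but the median was −0.02 without replicate 5 of LRT, 0.14 without replicate 6 of LRT and 0.02 with limma-voom. The deacetylase Hdac4 was at 25.9 to 181.3 CPM in LRT HI and 27.01 to 124 CPM in HRT HI (0.36 ± 0.41, adjusted p = 0.628), and its log2 fold change was 0.03 without replicate 3 of LRT. Gadd45a, a stress gene, was at 23.0 to 87.0 CPM and 18.6 to 46.2 CPM (0.44 ± 0.44, adjusted p = 0.568), and the cell cycle inhibitor Cdkn1a at 8.27 to 67.6 CPM and 13.8 to 35.3 CPM (0.37 ± 0.41, adjusted p = 0.617). Without replicate 5 of LRT the values were 0.16 for Gadd45a and −0.05 for Cdkn1a. Hdac4 and Gadd45a rose with the cast in both lines, by 2.44 and 1.956 in LRT and by 2.02 and 1.67 in HRT. The line differences had upper 95% limits of 1.16 for Hdac4 and 1.30 for Gadd45a, so differences up to that size are not excluded by these data. The most abundant members, Ampd3 (AMP deaminase) and Myf6 (a myogenic factor), had 0.47 ± 0.58 and 0.64 ± 0.34. Replicate 5 of LRT held the highest Myf6 level, 261.9 CPM against 88.9 CPM in the next rat, and without it Myf6 was at 0.17. Ampd3 was at 0.23 without replicate 1 of LRT and 0.24 without replicate 3.

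Fast-fibre genes held 2 called members of 9 (22.2%, against 12.2% of all genes and 7.01% of genes with a symbol), both higher in LRT, with a median of 0.43. In uncast soleus the median was higher, at 0.74, also with 2 called higher in LRT, where 1.45% of all genes were called and 0.548% were called higher in LRT. Without replicate 2 of LRT HI the median after the cast was 0.26. With the 12 libraries fitted alone 0 of the 9 were called by edgeR. Pvalb, the calcium buffer parvalbumin of fast fibres, was at 2.68 to 43.1 CPM in LRT HI (median 7.20) and 0.684 to 7.77 CPM in HRT HI (median 1.53). The log2 fold change was 2.47 ± 0.53 (adjusted p = 0.00203), with 0.70 (adjusted p = 0.631) in uncast soleus, and Pvalb rose with the cast in LRT, by 3.23, and was not called in HRT, at 1.47 (adjusted p = 0.0794). The difference in Pvalb was 1.77 without replicate 5 of LRT and 3.201 without replicate 1 of HRT. Those rats, at 43.1 and 7.77 CPM, also enter the responses of Pvalb to the cast, which are not given without them. Myoz1, a Z-disc protein of fast fibres, was at 118.7 to 326.5 CPM in LRT HI and 67.2 to 147.2 CPM in HRT HI (0.86 ± 0.26, adjusted p = 0.0244). Its difference was already present without a cast, at 1.44 (adjusted p = 0.00168).

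The call of Myoz1 was lost without replicates 4 or 5 of HRT or 2 or 5 of LRT (adjusted p of 0.0503 to 0.100). Mylpf, the fast regulatory light chain, was at 320.9 to 1039 CPM in LRT HI and 150.1 to 611.6 CPM in HRT HI and was not called (0.48 ± 0.39, adjusted p = 0.458; 0.20 without replicate 2 of LRT). Summed over the 9 genes, fast-fibre levels were 2273 to 5050 CPM in LRT and 2264 to 2956 CPM in HRT, which overlapped.

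Slow-fibre genes gave 0 calls of 9, with 1 at an unadjusted p under 0.05 (against 12.2% and 26.3% of all genes), and a median of −0.20. The median moved between −0.05 (without replicate 5 of HRT or 1 of LRT) and −0.47 (without replicate 5 of LRT). Car3, the muscle carbonic anhydrase, was at 4659 to 14250 CPM in LRT HI and 4281 to 17080 CPM in HRT HI (−0.36 ± 0.28, adjusted p = 0.438). Cryab, the small heat shock protein alpha-B-crystallin, had −0.30 ± 0.38. With each library left out in turn Car3 ran from −0.54 to −0.15 and Cryab from −0.76 to −0.05. Mitochondrial genes gave 0 calls of 30 by edgeR, and 1 by DESeq2 or with the replicate block. Of the 30, 3 had an unadjusted p under 0.05 (against 12.2% called and 26.3% unadjusted over all genes), and the median was 0.13. There were 3 calls without replicate 6 of HRT and 2 without replicate 1 or 3 of LRT, all higher in LRT, and the median ran from 0.01 (without replicate 1 of HRT or 6 of LRT) to 0.22 (without replicate 3 of LRT). The creatine kinase Ckmt2 and cytochrome c (Cycs) had 0.28 ± 0.21 and 0.10 ± 0.20. With each library left out in turn Ckmt2 ran from 0.17 to 0.38 and Cycs from −0.04 to 0.21, and neither was called.

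In the glycolysis and glycogen list 1 of 21 was called (4.76%, against 12.2% of all genes and 7.01% of those with a symbol) and the median was 0.31, with 0.50 in uncast soleus. Aldoc, an aldolase, was at 3.63 to 13.0 CPM in LRT HI and 2.56 to 8.99 CPM in HRT HI (0.70 ± 0.24, adjusted p = 0.0485), and it rose with the cast in both lines, by 1.95 in LRT and 1.13 in HRT. Its call was lost without replicates 2 to 6 of HRT or 1 to 4 of LRT (adjusted p of 0.0552 to 0.172), and in 5 of the 10 other settings, among them limma-voom, library totals and soleus alone.

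Among the 15 antioxidant genes Keap1, the repressor of NRF2, was the 1 called (6.67%, against 12.2% of all genes and 7.01% of those with a symbol). It was at 38.8 to 96.9 CPM in LRT HI (median 70.8) and 41.2 to 64.5 CPM in HRT HI (median 43.1), with a log2 fold change of 0.54 ± 0.18 (adjusted p = 0.0362). It lost the call without replicates 2 to 5 of HRT or 1, 3 or 4 of LRT (adjusted p of 0.0651 to 0.135), and in 5 of the 10 other settings, limma-voom and soleus alone among them. Of 18 genes of insulin and growth signalling 1 was called (5.56%, against 12.2% of all genes and 7.01% of those with a symbol), Chrd, which encodes chordin, an antagonist of bone morphogenetic proteins. Chrd was at 6.16 to 8.20 CPM in LRT HI (median 7.69) and 3.06 to 7.15 CPM in HRT HI (median 4.50), 0.61 ± 0.17 (adjusted p = 0.0133), and it rose with the cast in LRT, by 1.04, and was not called in HRT, at 0.24 (adjusted p = 0.369). The line difference of Chrd was not called with library totals (adjusted p = 0.055) or with the 12 libraries alone (adjusted p = 0.0795).

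The chaperone (12 genes), immediate early (20), circadian clock (10), lipid (19) and metallothionein and zinc (4) lists gave 0 calls each by edgeR and by DESeq2, and 0, 3, 1, 0 and 1 genes with an unadjusted p under 0.05 by edgeR (12.2% and 26.3% over all genes), with medians of 0.07, −0.09, 0.02, −0.01 and 0.10. Each of these medians changed sign within the alternatives, as in the chaperones, which ran from −0.14 without replicate 5 of LRT to 0.24 without replicate 3 of HRT. An immediate early gene was called without replicate 3 or 5 of HRT, a clock gene without replicate 6 of LRT, and a lipid gene with soleus or the 12 libraries fitted alone. Their most abundant members had wide errors, as in the chaperone Hspb1 (0.68 ± 0.38), the calcineurin regulator Rcan1 (0.61 ± 0.54), the matricellular factor Ctgf (−0.04 ± 0.31), the lipid enzyme Acsl6 (0.25 ± 0.26), the lipoprotein receptor Vldlr (−0.03 ± 0.20), the zinc transporter Slc30a2 (0.20 ± 0.57) and the metallothionein Mt2A (0.00 ± 0.43). Single libraries moved these values: without replicate 5 of LRT, Hspb1 was at 0.25, Rcan1 at −0.10 and Mt2A at −0.84, and with each library left out in turn Ctgf ran from −0.32 to 0.16, Acsl6 from 0.10 to 0.47, Vldlr from −0.14 to 0.04 and Slc30a2 from −0.01 to 0.49, none of them called by edgeR. The clock output factor Tef had 0.16 ± 0.17. The lists were drawn from genes that respond to the cast, and 290 genes were on at least 1 of the 18 lists.

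**Figure D5:**
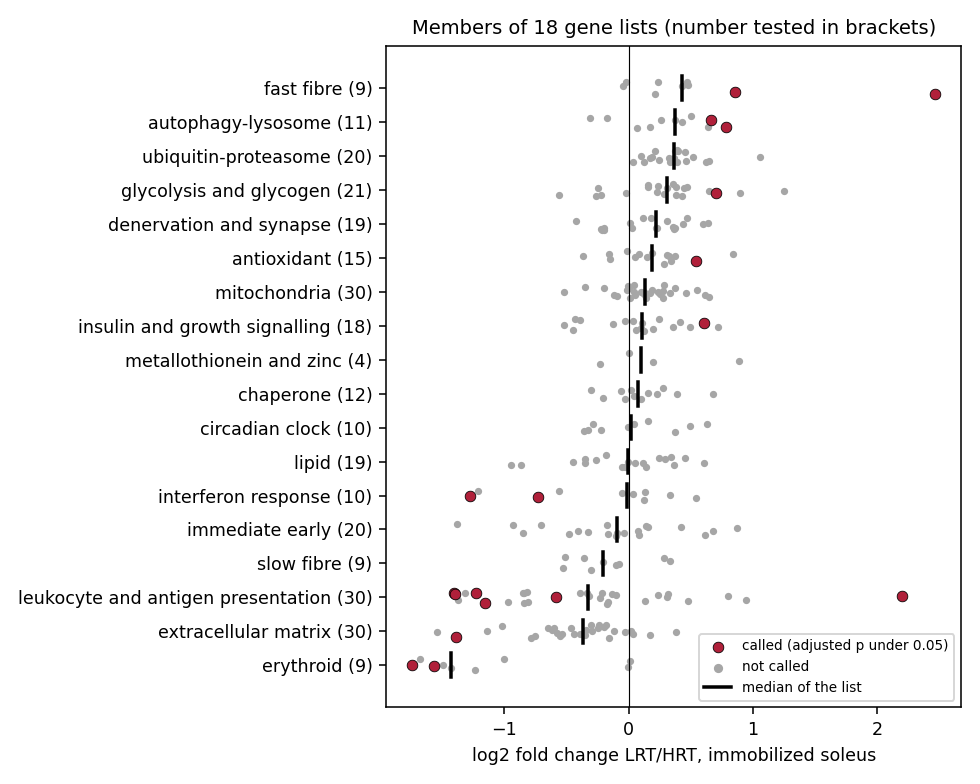
Log2 fold change LRT over HRT in immobilized soleus (x axis) of each member of 18 gene lists (y axis, number tested in brackets), with called members in red, others in grey and a black bar at the median. The medians run from −1.43 (erythroid, carried by 1 HRT rat) to 0.43 (fast fibre).

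A pair of microRNA precursor genes was called, both higher in LRT; they were picked after their values were seen. Mature microRNAs repress messenger RNAs that pair with their seed, bases 2 to 8, which is in capitals in these RefSeq sequences of GRCr8.
rno-miR-22-5p: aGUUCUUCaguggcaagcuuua
rno-miR-22-3p: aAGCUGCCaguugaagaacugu
rno-miR-3074: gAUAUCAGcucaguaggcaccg
No 2 of these seeds are the same. Both arms of miR-22 lie in the hairpin at chr10:60805331-60805425 (plus strand). The precursor gene Mir22 was at 2.10 to 7.02 CPM in LRT HI (median 5.69) and 0.937 to 4.51 CPM in HRT HI (median 1.91), a log2 fold change of 1.27 ± 0.41 (adjusted p = 0.0341). It rose with the cast in LRT, by 1.86 (adjusted p = 0.00286), and was not called in HRT, at 0.66 (adjusted p = 0.287).

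Mir3074 did not overlap between the lines, at 2.13 to 3.18 CPM in LRT HI and 0.781 to 2.05 CPM in HRT HI (0.79 ± 0.26, adjusted p = 0.0358). Its hairpin at chr17:1818648-1818764 (plus strand) overlaps that of Mir24-1 at chr17:1818669-1818736 on the other strand. Whether the counts used strand is not settled by the sources, so reads of the 2 genes cannot be told apart. These libraries were made for long RNA and the values are those of precursor or host transcripts, not of mature microRNAs. The calls were lost for Mir22 without replicates 2, 4 or 5 of HRT or 1 to 4 of LRT (adjusted p of 0.0565 to 0.111), and for Mir3074 without replicates 2, 4 or 5 of HRT or 2 or 5 of LRT (0.0731 to 0.128). Library totals and the 12 libraries alone ended both calls, limma-voom and leaving out RIN ended that of Mir22, and keeping genes of any count ended that of Mir3074.

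The interaction of line and cast called 1 gene with a symbol, LOC100362684, for which the line difference after the cast exceeded that in uncast muscle by 1.89 ± 0.33 (adjusted p = 0.00793). Its level rose with the cast in LRT, by 0.68 (adjusted p = 0.0432), and fell in HRT, by −1.20 (adjusted p = 0.000787). ENSRNOG00000051371 had the opposite form, −1.26 ± 0.22 (adjusted p = 0.00793). It was at 2.35 to 3.48 CPM in LRT HI and 3.40 to 8.31 CPM in HRT HI, and at 2.93 to 5.55 CPM and 3.37 to 4.64 CPM in the uncast lines. Both lost the interaction call when soleus was fitted alone (adjusted p = 0.254 and 0.242), a fit in which 0 genes were called by edgeR and 1278 had an unadjusted p under 0.05 (DESeq2 over all libraries called 35), and kept it in each of the 24 fits that left out 1 soleus library. The count of 5 itself rested on single rats: 81 genes were called without replicate 6 of HRT HI, 20 without replicate 1 of LRT CTRL, 18 without replicate 6 of LRT HI, 12 without replicate 4 of HRT CTRL or replicate 5 of LRT CTRL, and 8 without replicate 3 of HRT HI or replicate 2 of LRT HI. It was 3 without replicate 2, 3 or 5 of HRT CTRL, replicate 1, 2 or 5 of HRT HI, replicate 2, 3 or 4 of LRT CTRL, or replicate 4 or 5 of LRT HI. For the other genes named here the interaction was not called.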

How the data were processed

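RNA of 48 soleus and plantaris libraries was quantified by the authors with Salmon 0.9.1 and summed per gene with tximport, per the study's methods and the submitters' processing notes (which name rn6, Rnor_6.0). The deposited values are estimated counts, with no normalization between libraries, and were rounded. The labels and the methods name different library kits, so the strand setting is unsettled. Genes were kept by filterByExpr, scaled by TMM and fitted over all 48 libraries by quasi-likelihood in edgeR 4.0.16 (R 4.3.3) with group and RIN as terms, the 2 muscles of a rat being treated as independent. A gene was called at a Benjamini-Hochberg adjusted p under 0.05. CPM values use TMM-scaled totals, and principal components were taken from log2 CPM (prior count 2) after centring each gene. Totals were 26.8 to 36.4 M counts, which limits precision for genes under about 1 CPM. The p-values of this fit rest on a spread pooled over all 48 libraries, with plantaris and uncast muscle included. They do not measure the spread between the immobilized soleus rats alone.

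Named were the 12 called genes with a symbol and smallest p in each direction, called members of 18 function and 9 marker lists, the 2 most abundant members of lists without a call, 5 atrophy genes, interaction genes and 2 genes without symbol per direction. Some uncalled list members and both microRNA genes were added after their values were seen. Some items that this rule names are not reported here. The members and lists were chosen with earlier results of these data known. Symbols came from the study's tables of differentially expressed genes, whose fold changes and p-values were not used, since 0 of 47357 RefSeq entries given here had an Ensembl identifier.

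The fit was tested on simulated data with known changes. Alternatives were 10 other settings, among them limma-voom (limma 3.58.1) and DESeq2 1.42.0, and leaving out each soleus library in turn. The erythroid sum without replicate 5 of HRT was added after seeing the data.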

Additional observations from a re-analysis of the deposited data

Results flagged for a closer look

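In the immobilized soleus a library was singled out where its gap to the nearest rat of its group took more than 0.625 of the range of the 6 rats. This was looked at in 190 groups of 6. The limit gives about 1 in 20 by chance only for independent, normally spread values. These CPM values include related genes and sums of them, so that rate is not read here. Each flagged value was the highest of its group. Of the 20 such values, 8 belong to replicate 5 of HRT, namely Hba-a1 at 4117 CPM (next 659.7), Hba-a2 at 3232 CPM (next 441.9), Hbb at 2908 CPM (next 480.5), Alas2 at 186.9 CPM (next 27.8), Slc4a1 at 55.1 CPM, Lgals5 at 12.6 CPM (next 3.19) and Rsad2 at 51.2 CPM (next 11.8), beside the erythroid marker sum of 10600 CPM (next 1558).

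Replicate 5 of LRT was highest for Myf6 at 261.9 CPM (next 88.9), Hspb1 at 575.6 CPM (next 230.4), Mt2A at 18.8 CPM (next 4.50) and AABR07060913.2 at 3.29 CPM. Replicate 4 of HRT was highest for Trim63 at 249.6 CPM (next 157.9), Tnmd, the only tendon marker, at 6.03 CPM, and Fmo1 at 19.1 CPM. Replicate 1 of HRT was highest for Pvalb at 7.77 CPM (next 2.64) and Slc30a2 at 16.6 CPM. The others were Myocd at 4.08 CPM in replicate 4 of LRT and LOC100909784 at 164.8 CPM in replicate 6 of LRT (next 57.0).

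For 5 genes the line difference changed with the cast by the edgeR interaction test. The changes were 1.89 for LOC100362684, −1.26 for ENSRNOG00000051371, and −1.47, −1.04 and −0.72 for 3 further genes without a paired symbol. With other settings or a library left out, the gene at −1.04 was called in 13 of 33 fits and that at −1.47 in 14 of 33.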

How the results depend on the processing

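The sign of all 42 called genes named in the text was kept in each of the 22 alternatives in which the gene was tested. Over all named genes, 1644 gene-by-setting results kept their side of the threshold, 139 lost a call and 9 gained one. The 2076 calls in immobilized soleus became 328 with the 12 libraries alone and 1322 with soleus fitted alone. Leaving out 1 library gave 1194 (without replicate 4 of HRT) to 2537. Library totals without TMM gave 1581 calls, of which 39.7% were higher in LRT against 53.9%, and moved the median of all genes by −0.044. In uncast soleus the 246 calls became 78 with its 12 libraries alone, 99 with soleus alone, 437 with DESeq2 and 558 with library totals (9.7% higher in LRT against 37.8%, with a shift of the median of −0.121). Leaving out 1 library there gave 139 (without replicate 1 of LRT), 150 (without replicate 1 of HRT) and 156 (without replicate 5 of LRT) to 342. The 410 calls in plantaris became 13 with its 12 libraries alone, 186 with plantaris alone, 234 with library totals, 236 with genes of any count and 700 with DESeq2. For the interaction, 5 calls became 35 with DESeq2, 11 with at least 10 counts in every library, 9 without RIN, 3 with library totals and 0 with soleus alone, and 3 to 81 with 1 library left out. The cause of these changes was not tested.

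The rats of the 2 lines are different animals, so a replicate number marks no rat shared between the lines. Of 6 same-numbered pairs 2 had a correlation of deviations over 0.1 (−0.15 to 0.34), and 1 LRT library correlated best with its own number. The replicate block is a term for this number over all groups, and so it joins different rats. With it 2183 genes were called in immobilized soleus, 265 in uncast soleus, 524 in plantaris and 4 in the interaction. The summed skeletal muscle markers, LRT minus HRT, changed from 3.87 to −169.7 CPM with library totals, and the erythroid sum from −1566 to 50.8 CPM without replicate 5 of HRT. Genes under about 1 CPM rest on few counts, 8 to 67 for C3.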
